A study of Homo sapiens and Mus musculus with 4 samples.

Results

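The genes described here encode the receptor chains that share the common cytokine receptor gamma chain, and the kinases and transcription factors that carry their signal. The list holds IL2RA, IL2RB, IL2RG, IL7R, IL4R, IL21R, JAK1, JAK3, STAT5A and STAT5B, read as human genes in the human cell lines and as mouse genes of the same symbol in the mouse cell lines. All 10 human symbols and 9 mouse symbols were in the table, so 19 of its 60736 genes were members. The mouse symbol Il4r was not found, and Il4ra, the mouse counterpart of IL4R, is given beside the members and is not counted among them. The rule itself uses no measured value, but the list was drawn up with earlier results of these data known.

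The values are bulk RNA-seq levels of messenger RNA in 4 established lymphoid cell lines, with 1 library per line and no replicates. Jurkat is a human CD4+ T leukaemia line and TALL104 a human CD8+ T leukaemia line, whose culture medium contained interleukin-2 according to the study's methods. EL4 is a mouse T lymphoma line and IVA12 a mouse B-lineage hybridoma, that is, a fusion of a B cell with a myeloma cell. None of the groups carries a further treatment or engineered allele in the labels, and each line is a single culture, so a property of the line and a property of its culture, interleukin-2 in the medium included, cannot be told apart.

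The gamma chain, encoded by IL2RG, is a subunit of the receptors for interleukins 2, 4, 7, 9, 15 and 21. Each receptor adds a private chain that gives it its ligand, such as IL7R for interleukin-7, and the interleukin-2 receptor adds IL2RB for signalling and IL2RA for affinity. JAK1 binds the private chains and JAK3 binds the gamma chain. The activated kinases phosphorylate STAT proteins, chiefly STAT5A and STAT5B for interleukins 2, 7 and 15, which then bind DNA and switch on target genes in T cells, natural killer cells and B cells.

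Levels are FPKM, fragments divided by gene length and by the fragments of the library, and the deposited values can be compared between the lines of a species. FPKM of a human and of a mouse gene are not on a common scale. The libraries held between 25286728 and 34783047 reads, recovered from the steps between the FPKM values. All values above 0 fitted whole reads over some length to within a relative 1e-09. Since the length was free in that fit, the match does not show that the lengths and reads are right. Ranges in parentheses are 95% exact Poisson intervals of those reads, or exact binomial intervals for ratios, and cover counting error only. A difference was counted when FPKM + 1 differed by more than 1.5-fold, and a gene was called detected at 1 FPKM or more. With 1 library per line no test between lines could be made and no spread between cultures was measured. In bulk RNA, fewer expressing cells and less transcript per cell cannot be told apart.

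The lines carried the markers of their labels in part. All 7 listed T-cell markers were detected in Jurkat, TALL104 and EL4, with summed levels of 982, 778 and 632 FPKM, against 2 of 7 and 12.1 FPKM in IVA12. All 5 plasma-cell markers were detected in IVA12, at a summed 2000.4 FPKM, against 16.6 to 93.5 FPKM in the other libraries. Of 6 B-cell markers, Cd79b at 163 FPKM and Ms4a1 at 46.5 FPKM were detected in IVA12, and Pax5, a transcription factor that defines B cells, was below 1 FPKM there, as were Cd79a at 0.0543 FPKM and Cd22 at 0.119 FPKM. The 6 markers summed to 210.03 FPKM in IVA12 and 2.31 FPKM in EL4, of which Cd22 made up 1.75 FPKM. In the human T-cell lines they summed to 16.6 FPKM in Jurkat and 29.8 FPKM in TALL104, mostly CD79A at 16.5 and 24.6 FPKM. The 5 cytotoxic markers summed to 1725 FPKM in TALL104 and 35.5 FPKM in Jurkat, and in the mouse 4 of them were listed, at 35.3 FPKM in EL4 against 0.944 FPKM in IVA12. Markers of other blood cells, erythroid and myeloid ones in the human libraries and the myeloid Itgam and Cd14 alone in the mouse, summed to at most 1.65 FPKM in any library. Reads on genes of the other species made up 0.0376% to 0.0497% of reads in 3 libraries and 0.212% in IVA12.

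Between the human lines, most receptor and kinase genes had higher levels in TALL104, and the STAT5 genes had nearly the same level in both. IL2RA, IL2RB, IL2RG, IL4R, JAK1 and JAK3 were higher in TALL104 and IL7R was higher in Jurkat, so 7 of 10 members passed the threshold, 6 toward TALL104 and 1 toward Jurkat. With a 2-fold threshold 5 passed, without IL2RG and IL7R. Over all 32738 human genes 25.3% passed, 11.4% toward TALL104 and 13.8% toward Jurkat. The median log2 ratio of Jurkat over TALL104, on FPKM + 1, was -2.01 over the members and 0.00 over all genes, and -3.09 over the members of at least 1 FPKM in either line. Over all human genes of that level it was 0.10. Of the members, 9 reached 1 FPKM in at least 1 line, and 7 of these passed. Among the 12214 human genes that reached 1 FPKM in at least 1 line, 62.6% passed, 28.4% toward TALL104 and 34.2% toward Jurkat. The 9465 human genes detected in both lines had a median log2 ratio of FPKM of 0.11, and scaling the libraries by it moved the members' log2 ratios on FPKM + 1 toward TALL104 by that much or less. The summed cytotoxic markers given above were also higher in TALL104, as was the mitochondrially encoded share of FPKM, at 20.6% against 14.9%, and their part in these ratios was not tested.

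The 3 chains of the interleukin-2 receptor differed most in their smallest levels. IL2RA (ENSG00000134460, hg19 chromosome 10, 6052652 to 6104333, minus strand), the high-affinity alpha chain CD25, had 0.0815 FPKM in Jurkat (0.0373 to 0.155, 9 reads) and 22.6 FPKM in TALL104 (21.6 to 23.6, 2033 reads). IL2RB (ENSG00000100385, chromosome 22, 37514706 to 37571158, minus strand), the signalling beta chain also used by the interleukin-15 receptor, had 0.911 FPKM in Jurkat (0.771 to 1.07) and 104 FPKM in TALL104 (102 to 105). Neither chain reached 1 FPKM in Jurkat, although IL2RB had 149 reads there and its interval crossed that level. In TALL104 both lay in the upper part of the detected genes, at percentile 81.5 for IL2RA and 97.8 for IL2RB. The FPKM ratio of TALL104 over Jurkat was 277 for IL2RA (146 to 607) and 114 for IL2RB (96.8 to 135). On FPKM + 1, where low levels count less, IL2RB had the larger log2 ratio of Jurkat over TALL104, -5.77, and IL2RA had -4.45.

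IL2RG (ENSG00000147168, chromosome X, 70327254 to 70331958, minus strand), the shared gamma chain, was high in both human lines. It had 106 FPKM in Jurkat (104 to 108) and 203 FPKM in TALL104 (199.7 to 206), at percentiles 97.4 and 99.0 of the detected genes. The ratio of TALL104 over Jurkat was 1.92 (1.87 to 1.97), the smallest among the members past the threshold in FPKM. A further annotated gene on the same strand shares 51.3% of the exon bases of IL2RG and was not used here, so reads of that gene and of IL2RG were not separated.

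The private chains of the receptors for interleukin-4, interleukin-7 and interleukin-21 did not move together. IL4R (ENSG00000077238, chromosome 16, 27324989 to 27376099, plus strand), the alpha chain for interleukin-4 and interleukin-13, had 2.06 FPKM in Jurkat (1.87 to 2.26) and 28.2 FPKM in TALL104 (27.5 to 29.0), a ratio of 13.7 (12.4 to 15.2). IL7R (ENSG00000168685, chromosome 5, 35852797 to 35879705, plus strand), the interleukin-7 receptor alpha chain CD127, had the opposite order, 3.25 FPKM in Jurkat (2.73 to 3.84) and 1.48 FPKM in TALL104 (1.11 to 1.95). Its ratio of Jurkat over TALL104 was 2.19 (1.58 to 3.08), and on FPKM + 1 its log2 ratio of 0.77 had a counting SE of 0.15, so the counting interval reached below the 1.5-fold line. The gene length behind this FPKM was 1212 bases against 6020 annotated exon bases, so its 137 and 51 recovered reads may be a fraction of the true number, which would make the interval too wide.

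IL21R (ENSG00000103522, chromosome 16, 27413495 to 27463363, plus strand), which binds interleukin-21, was below 1 FPKM in both human lines, with 0.395 FPKM in Jurkat (0.300 to 0.511) and 0.385 FPKM in TALL104 (0.282 to 0.513). The ratio of Jurkat over TALL104 was 1.03 (0.686 to 1.55), a range that holds 1.5-fold differences in the direction of Jurkat, and the log2 ratio of 0.01 turned to -0.02 under both rescalings of the libraries. IL21R and IL4R lie next to each other on chromosome 16 on the same strand, and their ratios differed as given. An antisense gene, IL21R-AS1, covers 23.3% of the IL21R exon bases and had 0.0110 and 0 FPKM.

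Both kinase genes were higher in TALL104. JAK1 (ENSG00000162434, chromosome 1, 65298906 to 65533437, minus strand) had 21.0 FPKM in Jurkat (20.4 to 21.7) and 187 FPKM in TALL104 (185 to 189), a ratio of 8.87 (8.60 to 9.15). JAK3 (ENSG00000105639, chromosome 19, 17935589 to 17958880, minus strand) had 4.34 FPKM in Jurkat (4.08 to 4.61) and 56.4 FPKM in TALL104 (55.4 to 57.5), a ratio of 13.0 (12.2 to 13.9). In Jurkat the 2 genes stood at percentiles 78.4 and 28.6 of the detected genes, and in TALL104 at 98.9 and 94.9.

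The STAT5 genes are neighbours on chromosome 17 in opposite orientation and encode closely related proteins. STAT5A (ENSG00000126561, 40439565 to 40463961, plus strand) had 11.1 FPKM in Jurkat (10.7 to 11.6) and 13.6 FPKM in TALL104 (13.1 to 14.2), a ratio of 1.23 (1.16 to 1.30) in favour of TALL104. STAT5B (ENSG00000173757, 40351194 to 40440651, minus strand) had 23.6 FPKM in Jurkat (23.0 to 24.3) and 20.6 FPKM in TALL104 (19.9 to 21.3), a ratio of 1.15 (1.10 to 1.20) in favour of Jurkat. Both differences were larger than counting error, under the 1.5-fold threshold and of opposite direction, and the 2 levels summed to 34.7 FPKM in Jurkat and 34.2 FPKM in TALL104. Read-length stretches found in both genes, counted on either strand, made up 8.34% of STAT5A and 4.34% of STAT5B. The exons of the 2 genes also overlap on opposite strands, over 6.50% of STAT5A and 3.43% of STAT5B exon bases. Stretches from this overlap and from similar sequence were not separated.

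**Figure D1:**
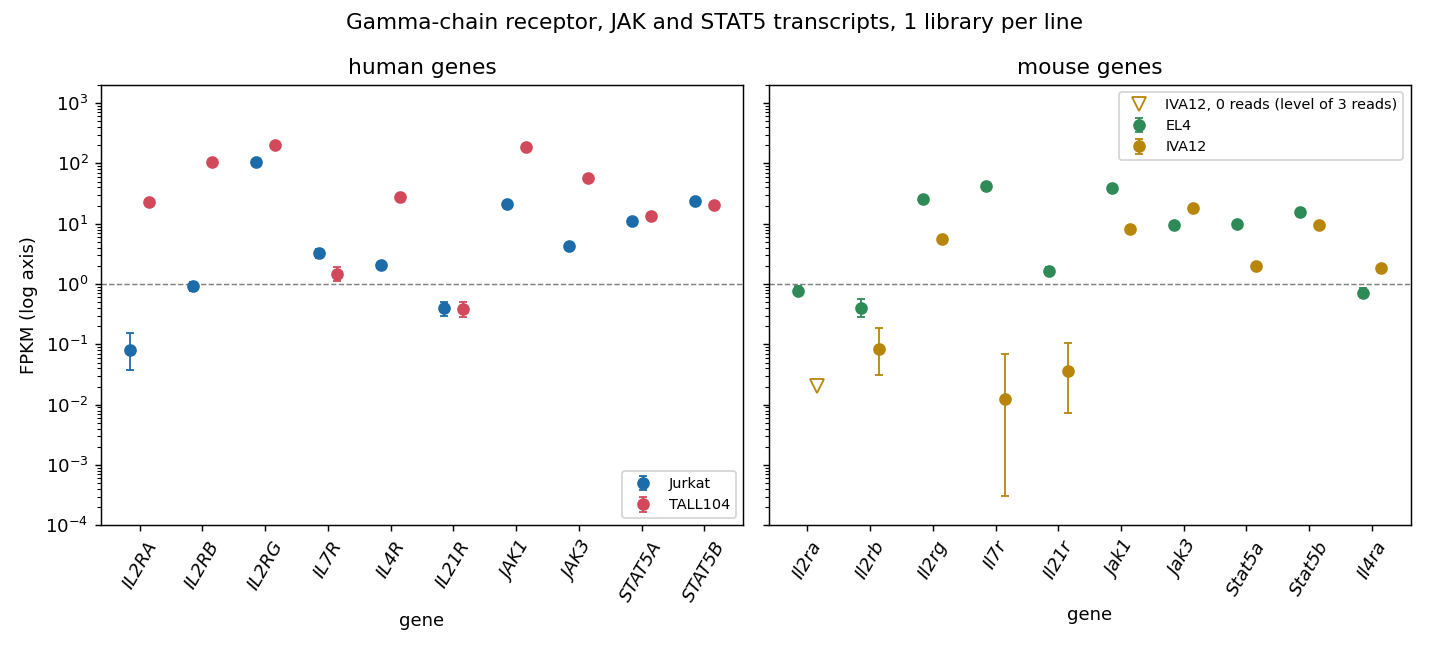
Level of each gene in FPKM on a log axis, human genes in Jurkat and TALL104 on the left and mouse genes in EL4 and IVA12 on the right, with 95% counting intervals and a dashed line at 1 FPKM; the open triangle marks Il2ra in IVA12, with 0 reads, drawn at the level of 3 reads. IL2RA and IL2RB lay below 1 FPKM in Jurkat and at 22.6 and 104 FPKM in TALL104, and Il7r lay at 42.0 FPKM in EL4 against 0.0123 FPKM in IVA12.

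Between the mouse lines, Il2ra, Il2rg, Il7r, Il21r, Jak1, Stat5a and Stat5b were higher in the T-cell line EL4 and Jak3 was higher in IVA12. Thus 8 of 9 members passed the threshold, 7 toward EL4 and 1 toward IVA12, and Il2rb did not pass. With a 2-fold threshold 5 passed. Over all 27998 mouse genes 21.0% passed, 9.75% toward EL4 and 11.2% toward IVA12. The median log2 ratio of EL4 over IVA12 was 1.37 over the members and 0.00 over all genes, and over the members it was 2.19 with a pseudocount of 0.1 FPKM and 2.21 with 0.01. At 1 FPKM or more in either line it was 1.85 over the members and -0.04 over all mouse genes. Among the members, 7 reached 1 FPKM in at least 1 line, and all 7 of these passed, whereas Il2ra passed without reaching it. Of the 10801 mouse genes that reached 1 FPKM in at least 1 line, 50.3% passed, 23.8% toward EL4 and 26.5% toward IVA12. The T-cell and plasma-cell markers given above also separated these lines, and their part in these ratios was not tested.

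The largest difference among the mouse members was that of Il7r (ENSMUSG00000003882, mm10 chromosome 15, 9505788 to 9530176, minus strand). It had 42.0 FPKM in EL4 (40.8 to 43.3, 4331 reads) and 0.0123 FPKM in IVA12 (0.000312 to 0.0687, 1 read), and the log2 ratio on FPKM + 1 was 5.41. The ratio of FPKM was 3407, with a counting interval whose lower end was 611 and whose upper end is set by that 1 read. Il7r stood at percentile 86.1 of the genes detected in EL4, above every other member of the list in that line.

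The gamma chain itself, Il2rg (ENSMUSG00000031304, chromosome X, 101264378 to 101268255, minus strand), had 26.0 FPKM in EL4 (24.9 to 27.2) and 5.60 FPKM in IVA12 (5.02 to 6.23), a ratio of 4.64 (4.13 to 5.23). It was detected in both mouse lines, as IL2RG was in both human lines. Gm20489, which shares 30.5% of the Il2rg exon bases on the same strand, was listed at 0 FPKM in both.

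The other mouse receptor chains were low. Il2ra (ENSMUSG00000026770, chromosome 2, 11642807 to 11693193, plus strand) had 0.779 FPKM in EL4 (0.656 to 0.917, 143 reads) and 0 reads in IVA12 (0 to 0.0255 FPKM). The level in EL4 was 37.5-fold that of 3 reads in IVA12, 0.0208 FPKM, which is a reference level and not a bound. Il2rb (ENSMUSG00000068227, chromosome 15, 78479256 to 78495271, minus strand) had 0.402 FPKM in EL4 (0.282 to 0.557, 36 reads) and 0.0852 FPKM in IVA12 (0.0313 to 0.185, 6 reads). Il21r (ENSMUSG00000030745, chromosome 7, 125603429 to 125633570, plus strand) had 1.68 FPKM in EL4 (1.44 to 1.94) and 0.0357 FPKM in IVA12 (0.00736 to 0.104, 3 reads). Il21r alone among these reached 1 FPKM, in EL4. The FPKM ratio of EL4 over IVA12 was 46.9 for Il21r (15.8 to 229.7) and 4.72 for Il2rb (1.97 to 13.7). Il2rb did not pass 1.5-fold on FPKM + 1, with a log2 ratio of 0.37, and passed it with smaller pseudocounts, at 1.44 with 0.1 and 2.11 with 0.01.

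Il4ra (ENSMUSG00000030748, chromosome 7, 125552120 to 125579474, plus strand), the counterpart of IL4R, went the other way. It had 0.720 FPKM in EL4 (0.606 to 0.851) and 1.88 FPKM in IVA12 (1.67 to 2.11), a ratio of IVA12 over EL4 of 2.61 (2.12 to 3.22). Like the human genes, Il4ra and Il21r are neighbours on the same strand, here on chromosome 7, and each was higher in a different line.

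Jak1 (ENSMUSG00000028530, chromosome 4, 101152367 to 101265282, minus strand) had 38.5 FPKM in EL4 (37.7 to 39.3) and 8.33 FPKM in IVA12 (7.92 to 8.76), a ratio of 4.62 (4.38 to 4.88). Jak3 (ENSMUSG00000031805, chromosome 8, 71676296 to 71690575, plus strand) had 9.61 FPKM in EL4 (9.16 to 10.1) and 18.0 FPKM in IVA12 (17.3 to 18.7), a ratio of IVA12 over EL4 of 1.87 (1.76 to 1.995). Jak3 was thus the only member by symbol with a higher level in IVA12, and the kinases moved in opposite directions. Insl3, which overlaps 7.55% of the Jak3 exon bases on the same strand, had 0.999 FPKM in EL4 against 1.40 FPKM in IVA12, and how reads in the overlap were assigned is not given in the sources used here.

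Stat5a (ENSMUSG00000004043, chromosome 11, 100859351 to 100885169, plus strand) had 9.86 FPKM in EL4 (9.45 to 10.3) and 2.001 FPKM in IVA12 (1.80 to 2.22), a ratio of 4.92 (4.40 to 5.52). Stat5b (ENSMUSG00000020919, chromosome 11, 100780731 to 100850724, minus strand) had 15.8 FPKM in EL4 (15.2 to 16.4) and 9.67 FPKM in IVA12 (9.17 to 10.2), a ratio of 1.63 (1.53 to 1.74). Both paralogs were higher in EL4, and on FPKM + 1 the log2 ratios were 1.85 for Stat5a and 0.65 for Stat5b. The counting interval of the latter, with an SE of 0.04, reached below the 1.5-fold line.

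**Figure D2:**
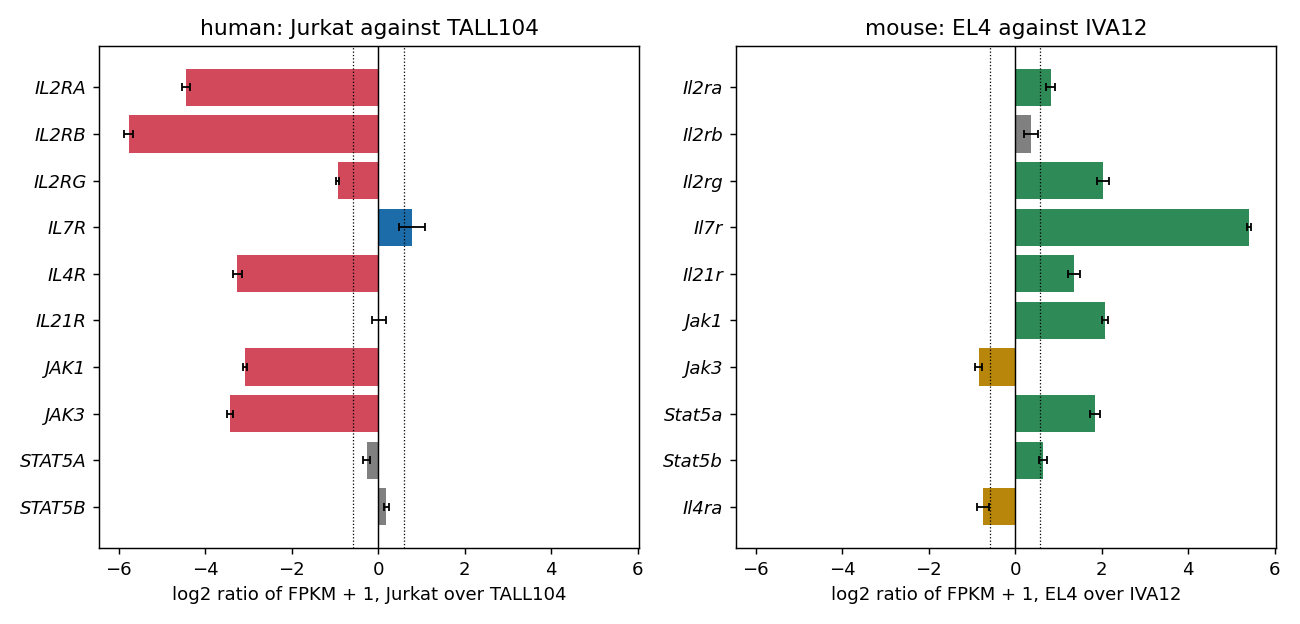
Log2 ratio of FPKM + 1 for each gene, Jurkat over TALL104 on the left and EL4 over IVA12 on the right, as bars from 0 with counting intervals; dotted lines mark 1.5-fold in each direction and bars within it are grey. Bars to the left are higher in TALL104 or IVA12 and bars to the right higher in Jurkat or EL4: 6 human members extend past the left line, and Il7r has the longest bar among the mouse genes.

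Because FPKM is per length, the order of the genes within a library could be read as well, at the lengths behind the deposited values. In TALL104 the order was IL2RG, JAK1, IL2RB, JAK3, IL4R, IL2RA, STAT5B, STAT5A, IL7R and IL21R, and no neighbours in it had overlapping counting intervals. In Jurkat IL2RG was followed by STAT5B, JAK1, STAT5A, JAK3, IL7R, IL4R, IL2RB, IL21R and IL2RA, again with no overlap between neighbours. In EL4 the order was Il7r, Jak1, Il2rg, Stat5b, Stat5a, Jak3, Il21r, Il2ra and Il2rb, in which the intervals of Stat5a and Jak3 overlapped. In IVA12 Jak3 came first, followed by Stat5b, Jak1, Il2rg and Stat5a, and the intervals of Il2rb, Il21r and Il7r, with 6, 3 and 1 reads, overlapped below them, with Il2ra at 0 reads.

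Ratios within a library placed the subunits side by side. JAK3 over JAK1 was 2.16 in IVA12 (2.03 to 2.31), against 0.206 in Jurkat (0.192 to 0.221), 0.302 in TALL104 (0.296 to 0.309) and 0.250 in EL4 (0.237 to 0.263). The T-cell lines had more JAK1 than JAK3 per length and the hybridoma had more Jak3 than Jak1. STAT5B over STAT5A was likewise highest in IVA12, at 4.83 (4.30 to 5.44), against 1.599 in EL4 (1.51 to 1.69). In the human lines it was 2.12 in Jurkat (2.02 to 2.23) and 1.51 in TALL104 (1.43 to 1.59). With annotated exon lengths applied to the recovered reads, STAT5B over STAT5A was 1.25 in Jurkat and 0.891 in TALL104, and JAK3 over JAK1 was 0.350 and 0.513. That calculation rests on recovered lengths of 6447 bases for STAT5B and 6317 for JAK1, against 12110 and 13174 annotated. The annotated lengths come from another annotation release than the one the study names for its reference. Recovered lengths can lack a common factor. A missed factor of 2 in STAT5B and JAK1 would raise STAT5B over STAT5A and lower JAK3 over JAK1 in that calculation. The dependence on length and the order of the STAT5 genes in TALL104 were therefore not settled. The summed STAT5 level was 25.6 FPKM in EL4 against 11.7 FPKM in IVA12.

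The beta chain stood at 0.511 of the gamma chain in TALL104 (0.499 to 0.523) and at 0.00863 in Jurkat, 0.0155 in EL4 and 0.0152 in IVA12. IL7R over IL2RG was 0.0308 in Jurkat and 0.00732 in TALL104, and 1.62 in EL4 (1.53 to 1.70). Of the 4 libraries, TALL104 held the most beta-chain transcript relative to the gamma chain, and EL4 held more Il7r than Il2rg. The private chains IL2RB, IL7R, IL4R or Il4ra, IL21R and IL9R were summed within each library. In the human lines the sum was 317 FPKM in TALL104 and 25.2 FPKM in Jurkat. In the mouse lines it was 63.8 FPKM in EL4 and 2.04 FPKM in IVA12. Divided by IL2RG, these sums were 1.56 in TALL104, 2.45 in EL4, 0.239 in Jurkat and 0.365 in IVA12. IL9R, which is not in the member list, carried much of the sum in 3 of the lines, and without it the ratio was 0.0626 in Jurkat, 0.659 in TALL104 and 1.72 in EL4, a calculation added after the values were seen.

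**Figure D3:**
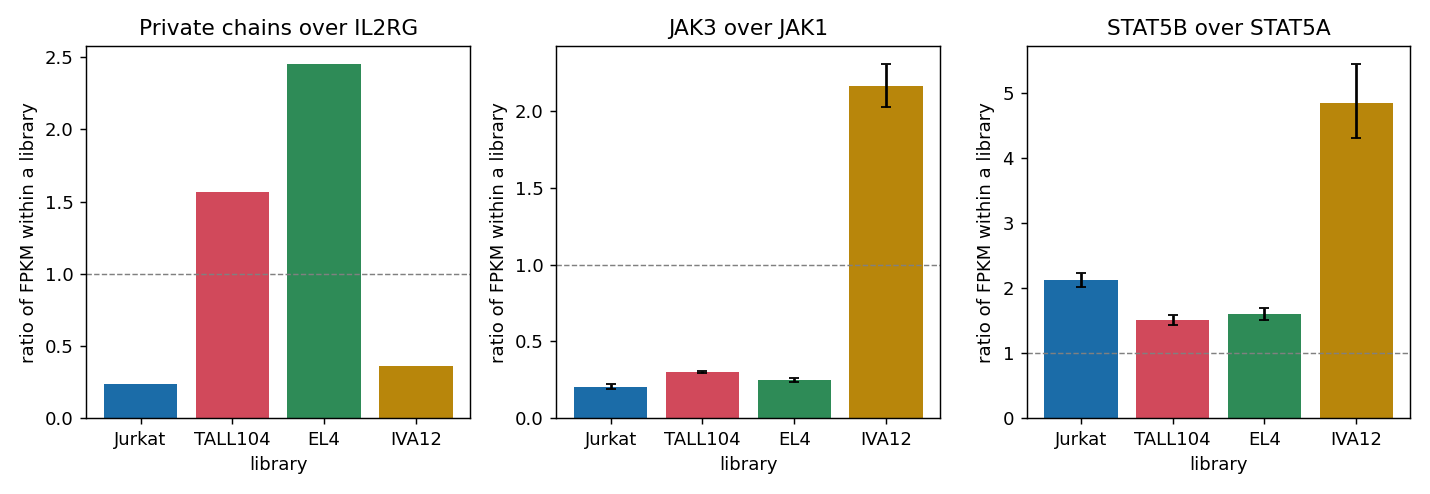
Ratios of FPKM within each library, as bars from 0 for the 4 cell lines: the summed private chains over IL2RG on the left, JAK3 over JAK1 in the middle and STAT5B over STAT5A on the right, with exact 95% counting intervals in the middle and right panels and a dashed line at a ratio of 1. IVA12 had the highest JAK3 over JAK1, 2.16, and the highest STAT5B over STAT5A, 4.83, of the 4 libraries.

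Transcripts of the cytokines that bind these receptors were near 0 in all 4 lines. None of the 6 cytokine genes IL2, IL4, IL7, IL9, IL15 and IL21 reached 1 FPKM in any line of its species, and none passed 1.5-fold in either pair, although 2 did in each pair with a pseudocount of 0.1 FPKM. IL15 had 0.172 FPKM in Jurkat and 0.229 FPKM in TALL104, on 47 and 51 reads. IL4 had 0.241 FPKM in Jurkat on 2 reads and IL2 had 0.0514 FPKM on 2 reads, and both had 0 reads in TALL104, the line grown with interleukin-2. In the mouse Il4 had 0.330 FPKM in EL4 on 13 reads and 0 reads in IVA12, Il15 had 0 reads in EL4 and 0.207 FPKM in IVA12 on 5 reads, and Il2 had 0.0272 FPKM in EL4 on 1 read. The lengths behind human IL4 and mouse Il15 were 239 and 954 bases, against 820 and 2261 annotated. The recovered reads of these genes may therefore be a fraction of the true number.

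Of the 4 partner chains, IL15RA, IL9R, IL13RA1 and CRLF2, which pair with these receptors or replace the gamma chain in related ones, 2 were higher in TALL104 and 0 in Jurkat, with a median log2 ratio of -0.85. Toward TALL104, 28.4% of human genes with at least 1 FPKM passed. The median was -1.82 with a pseudocount of 0.1 FPKM, where 3 of the 4 passed, and -2.42 over genes of at least 1 FPKM. IL9R, the private chain for interleukin-9, had 18.6 FPKM in Jurkat and 183 FPKM in TALL104, a ratio of 9.86 (9.36 to 10.4), and 16.6% of its read-length stretches also occur in other genes, mostly the pseudogene IL9RP3. IL15RA, the interleukin-15 alpha chain, had 0.281 and 2.91 FPKM, and IL13RA1 had 0 and 0.0589 FPKM. In the mouse 3 were higher in EL4 and 1 in IVA12, with a median of 1.90 that went to 3.81 with a pseudocount of 0.1 FPKM. Of mouse genes with at least 1 FPKM, 23.8% passed toward EL4 and 26.5% toward IVA12. Il9r had 19.0 FPKM in EL4 against 0.0320 FPKM in IVA12 on 4 reads, and Crlf2, the receptor chain for thymic stromal lymphopoietin that pairs with Il7r, had 5.60 and 0.0265 FPKM. Il13ra1, which pairs with Il4ra, had the order of Il4ra, with 0.159 FPKM in EL4 against 8.06 FPKM in IVA12.

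The list of other JAK and STAT genes held 7 genes, JAK2, STAT2, STAT4 and STAT6 among them. All 7 were higher in TALL104 than in Jurkat, with a median log2 ratio of -1.10, against 28.4% of genes with at least 1 FPKM, whereas neither STAT5 gene passed 1.5-fold. STAT4, the transducer of interleukin-12 signals, had 2.45 FPKM in Jurkat and 66.6 FPKM in TALL104, a ratio of 27.2 (24.5 to 30.3). STAT2, a transducer of interferon signals, had 7.73 and 27.2 FPKM. In the mouse 2 were higher in EL4 and 2 in IVA12, 4 of 7 against 50.3% of genes with at least 1 FPKM, with a median of -0.07 that went to -0.20 with a pseudocount of 0.1 FPKM. Stat6, the transducer of interleukin-4 signals, had 28.1 FPKM in EL4 against 9.43 FPKM in IVA12, Stat2 had 7.96 and 16.9 FPKM, and Jak2 had 10.2 and 5.74 FPKM.

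Among 9 negative regulators of the pathway, 6 were higher in TALL104 and 0 in Jurkat, with a median log2 ratio of -1.26. This is near the 62.6% of human genes with at least 1 FPKM that passed in either direction. Toward TALL104 alone 28.4% passed. CISH (ENSG00000114737), a SOCS-family protein induced through STAT5, had 0.675 FPKM in Jurkat on 40 reads and 35.3 FPKM in TALL104 on 1703 reads, a ratio of 52.2 (38.2 to 73.4). SOCS1, an inhibitor of JAK kinases, had 0.258 and 12.7 FPKM, a ratio of 49.2, and the adaptor SH2B3 had 9.27 and 29.1 FPKM. In the mouse 4 were higher in EL4 and 1 in IVA12, 5 of 9 against 50.3% of genes with at least 1 FPKM, with a median of 0.57 that was 1.31 over genes of that level. The phosphatases Ptpn6 and Ptprc, the latter being CD45, had 266 and 49.1 FPKM in EL4 and 6.31 and 2.19 FPKM in IVA12. Socs3 had the opposite order, with 0.161 FPKM in EL4 against 12.4 FPKM in IVA12, and Cish was below 1 FPKM in both, with 0.0436 FPKM on 9 reads and 0.136 FPKM on 22 reads.

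Genes widely described as STAT5 targets, 12 in the list, were higher in TALL104 in 9 cases and in Jurkat in 1, with a median log2 ratio of -1.86. Among human genes with at least 1 FPKM, 28.4% passed toward TALL104 and 34.2% toward Jurkat. PIM1, a survival kinase, had 2.64 FPKM in Jurkat and 134 FPKM in TALL104, a ratio of 50.7 (45.0 to 57.4). CCND2, the cell-cycle regulator cyclin D2, had 0.675 and 35.1 FPKM, a ratio of 52.0 (44.6 to 60.9). MYC, the 1 gene higher in Jurkat, had 96.8 and 20.4 FPKM. In the mouse 3 were higher in EL4 and 7 in IVA12, where 23.8% and 26.5% of genes with at least 1 FPKM passed in those directions, with a median of -1.23, so this list lay toward IVA12 while the members lay toward EL4. Pim1 had 6.80 FPKM in EL4 against 139 FPKM in IVA12, the survival gene Mcl1 had 59.3 and 303 FPKM, and Bcl2, which also protects cells from death, had 17.6 and 0.566 FPKM.

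Promoters were searched for TTCNNNGAA, the spaced palindrome that STAT5 dimers bind, which reads the same on both strands. The sequences came from RefSeq on GRCh38.p14, a later build than the hg19 of the levels, and covered 250 bases before to 50 bases after each start. Of 35116 promoters 7.66% held at least 1 match, and 4 or more were found in 7 promoters, 0.0199%. The 13 promoters of 9 members held 0 matches, and IL2RB had no entry. Among the target genes 7 of 12 had entries, with 11 promoters, of which 3 held a match, those of CISH and LTA. PIM1, PIM2, BCL2, BCL2L1 and CCND3 had entries with 0 matches. Between the human lines PIM1 differed 50.7-fold and LTA 7.17-fold, and CCND2, which differed 52.0-fold, had no entry. A link between matches and levels was not tested. CISH, whose level differed 52.2-fold between the human lines, held 4 matches, TTCCTGGAA at 241, TTCTTGGAA at 230, TTCTAGGAA at 129 and TTCCGGGAA at 112 bases before its start. Its 250 bases before the start (chr3:50611775-50612024, minus strand) are shown with the matches in capitals, and those of IL2RA (chr10:6062368-6062617, minus strand), the member with the largest FPKM ratio in the human pair, are shown for comparison, with no match.
CISH: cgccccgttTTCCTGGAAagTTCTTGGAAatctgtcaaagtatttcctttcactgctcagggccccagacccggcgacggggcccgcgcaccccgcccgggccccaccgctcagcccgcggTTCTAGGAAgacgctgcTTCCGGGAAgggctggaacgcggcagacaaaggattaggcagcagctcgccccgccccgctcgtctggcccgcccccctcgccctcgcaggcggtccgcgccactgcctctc
IL2RA: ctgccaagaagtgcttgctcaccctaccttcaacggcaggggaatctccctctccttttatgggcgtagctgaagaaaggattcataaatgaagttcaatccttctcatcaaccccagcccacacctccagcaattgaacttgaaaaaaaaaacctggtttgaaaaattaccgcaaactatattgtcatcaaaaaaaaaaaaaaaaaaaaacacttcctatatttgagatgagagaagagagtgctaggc
A match is a description of the letters and not evidence of binding, and binding sites outside these windows were not searched.

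Of 10 adaptors and kinases that couple such receptors to the RAS, PI3K and SRC-family pathways, 5 were higher in TALL104 and 1 in Jurkat, with a median log2 ratio of -0.69, and the 6 of 10 that passed were near the 62.6% of genes with at least 1 FPKM. SOS1, a RAS exchange factor, had 4.94 FPKM in Jurkat and 284 FPKM in TALL104, PIK3CD, the lymphoid PI3K catalytic subunit, had 6.60 and 87.4 FPKM, and the adaptor GAB2 had 0.972 and 18.3 FPKM. In the mouse 4 were higher in EL4 and 3 in IVA12, 7 of 10 against 50.3% of genes with at least 1 FPKM, with a median of 0.12 that was 0.0451 over genes of that level. Lck, the T-cell SRC-family kinase, had 96.5 FPKM in EL4 against 0.527 FPKM in IVA12, and Gab2 had 6.16 and 0.410 FPKM. Syk, a kinase of the B-cell receptor, had 0 reads in EL4 and 13.0 FPKM in IVA12, 1304-fold the level of 3 reads in EL4.

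**Figure D4:**
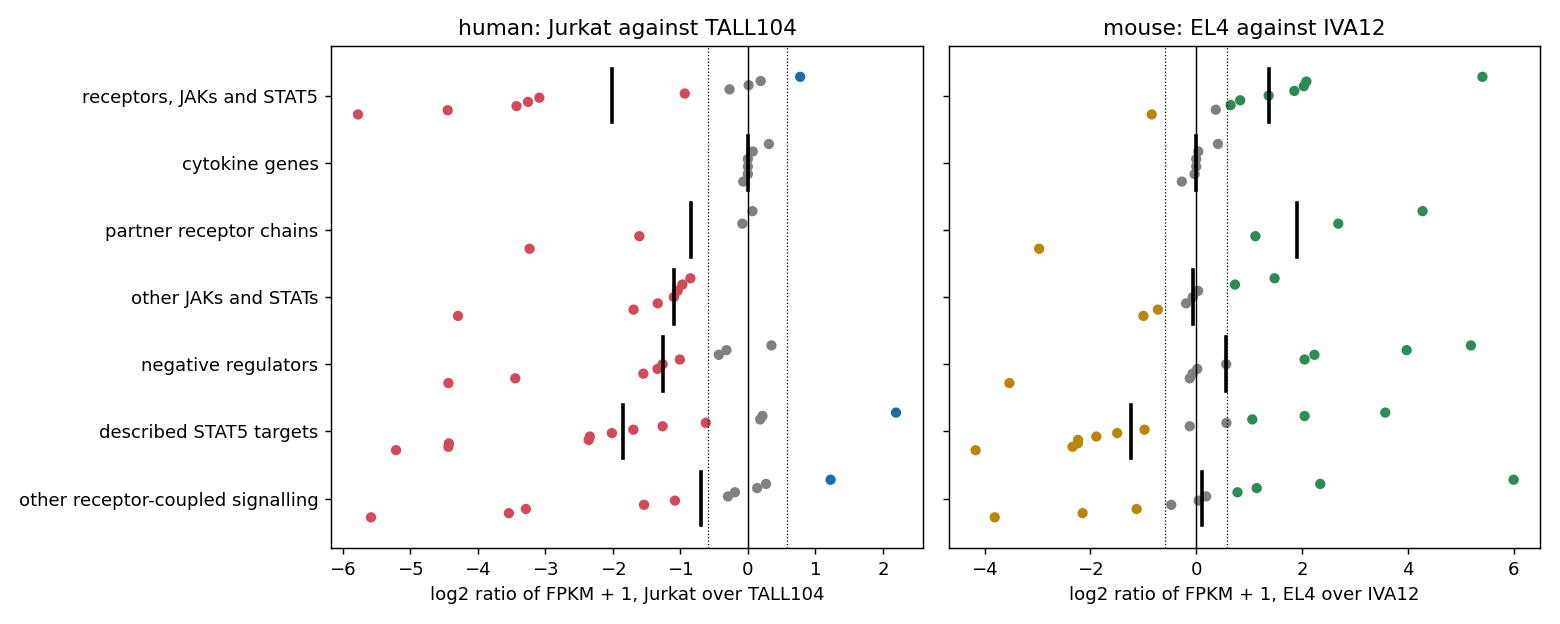
Log2 ratio of FPKM + 1 for each gene of the members and of the 6 pathway lists, Jurkat over TALL104 on the left and EL4 over IVA12 on the right; points are genes, grey within 1.5-fold, thick bars are list medians and dotted lines mark 1.5-fold. In the human pair the medians of the members and of all lists but the cytokine genes lay toward TALL104, and in the mouse pair the members had a median of 1.37 toward EL4 and the STAT5 targets one of -1.23 toward IVA12.

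Genes with the most similar levels were found over the 4 libraries, as the Euclidean distance between log2(FPKM + 1) values among 15541 genes whose symbol is shared by both species. Nearest to IL2RA were TBX21, a transcription factor of type 1 T cells, at a distance of 0.337, and SLAMF1 at 0.386. TBX21 had 23.7 FPKM in TALL104, 0.330 in Jurkat, 0.613 in EL4 and 0 in IVA12. Nearest to IL2RB were MYO1F at 0.757 and IL10RA, a chain of the interleukin-10 receptor, at 0.806, both at 67.2 to 69.8 FPKM in TALL104 and below 1 FPKM in the other libraries. Nearest to IL7R were SAPCD1 at 0.821 and LY9 at 0.851, with 23.7 and 36.3 FPKM in EL4. In Jurkat and TALL104 SAPCD1 had 2.83 and 1.40 FPKM, in the order of IL7R, and LY9 had 1.57 and 2.27 FPKM, in the opposite order. With 4 points, 1 per line, these distances describe the libraries only.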

How the data were processed

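Stranded, paired messenger RNA libraries were made from 4 cell lines, 1 library per line. The authors aligned reads with STAR 2.5.1b to a combined human hg19 and mouse mm10 reference (Cell Ranger 1.2.0) and counted them with featureCounts 1.6.3. The authors deposited FPKM for all genes in 1 table, which had 0 further columns per library. The gene lengths, strand setting and treatment of multiply aligned reads are not given in the sources used here.

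Reads were recovered from the FPKM, since each value is a whole number of reads over gene length and library total. Lengths found this way matched the annotation in 22.2% (human) and 72.8% (mouse) of genes with reads, and reads of other genes may lack a common factor. Jurkat had 34783047 reads, TALL104 28345951, EL4 32149319 and IVA12 25286728. Positions and annotated lengths came from GENCODE, release 44 lifted to hg19 and release M21 on mm10, matched by identifier for 31182 human and 27645 mouse genes. The study's methods name other annotation releases, from Ensembl, for its reference, so annotated lengths can differ from those behind the FPKM. Shared sequence was counted in windows of 101 bases, the read length. Promoters came from RefSeq.

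Lines were compared within a species, on FPKM + 1, against a threshold of 1.5-fold, and the pairs share no library. No test was run, since replicates are lacking. Named were all members, per list and pair the 3 genes of largest absolute log2 ratio, cytokine genes above 0.1 FPKM, and the 2 genes nearest to IL2RA, IL2RB and IL7R. Cish, MYC and overlapping genes were named after their values were seen, and some genes that the rule would name are not reported here. Members and lists were chosen with earlier results of these data known. Alternatives were other pseudocounts, scalings, a minimum level, a 2-fold threshold, annotated lengths and Il4ra as a member. On simulated data with 200 changed genes per pair, 200 were called in the right direction in each pair, and 2 totals per pair were recovered. Calls among unchanged genes and the recovered reads of single genes are not given for these data. The result therefore gives no rate of false calls and does not bear on lengths that differ from the annotation. Python 3.11.15, NumPy 2.4.6, pandas 2.3.3, SciPy 1.17.1 and matplotlib 3.10.9 were used.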

Additional observations from a re-analysis of the deposited data

Results flagged for a closer look

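Reads of members were also listed under genes of the other species, which the comparisons do not use. The study has no control library, and each value given here was on more than 3 reads. IVA12 had 41 reads on the 10 human members, with 0.0626 FPKM for JAK1 on 10 reads, 0.115 for IL2RG on 8, 0.0412 for STAT5A on 6, 0.0290 for JAK3 on 5, 0.0307 for STAT5B on 5 and 0.0260 for IL4R on 4. EL4 had 14 reads, with 0.0295 FPKM for human JAK1 on 6 reads and 0.0451 for IL2RG on 4. TALL104 had 17 reads on mouse genes, with 0.0537 FPKM for Jak1 on 11 reads and 0.0198 for Stat5a on 4. Jurkat had 4 reads, and no mouse gene of the list above 3. No read-length stretch of a member's transcripts occurred in a transcript of the other species. The source of these reads was not tested.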

How the results depend on the processing

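No member past the threshold changed direction under the alternatives run. IL21R, within it, turned from 0.01 to -0.02 under both rescalings, and Il2rb passed it with either smaller pseudocount. The number of members past 1.5-fold stayed within 1.5 times its value except with a 2-fold threshold in the mouse, which left 5 of 9. In the human pair a 2-fold threshold left 5 of 10, without IL2RG and IL7R. The median log2 ratio of the human members was -2.04 with either smaller pseudocount (0.1 or 0.01 FPKM), -2.12 with either rescaling and -3.09 over members of at least 1 FPKM in either line. The mouse median was 2.19 with a pseudocount of 0.1, 2.21 with 0.01, 1.85 over members of at least 1 FPKM and 1.10 with Il4ra. With a pseudocount of 0.1, 2 cytokine genes passed in each pair, no cytokine gene reached 1 FPKM, and list medians were, in the human pair, -1.82 for partner chains, -1.64 for negative regulators and -1.97 for STAT5 targets, and in the mouse pair 3.81 for partner chains, -0.20 for other JAKs and STATs and -1.34 for STAT5 targets. Over genes of at least 1 FPKM they were -2.42 for partner chains and -2.01 for STAT5 targets in the human pair, and 1.31 for negative regulators, -1.69 for STAT5 targets and 0.0451 for signalling genes in the mouse pair. Scaled by the median ratio, human medians were -1.20 for other JAKs and STATs, -1.96 for STAT5 targets and -0.79 for signalling genes. With annotated exon lengths, STAT5B over STAT5A was 1.25 in Jurkat and 0.891 in TALL104, and JAK3 over JAK1 was 0.350 and 0.513. If the recovered lengths of STAT5B and JAK1 lack a factor of 2, the former ratio would be higher and the latter lower. Without IL9R, private chains over IL2RG were 0.0626 in Jurkat, 0.659 in TALL104 and 1.72 in EL4. Of 76 recomputed member ratios, 36 moved by more than counting error and 40 did not. No paired analysis was possible because there is 1 library per line. Depth limits Il2ra, Il2rb, Il7r and Il21r in IVA12, with at most 6 reads each.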
